A study of Homo sapiens with 15 samples.

Results

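The genes described here are 46 collagens, matrix glycoproteins, matrix enzymes and mesenchymal markers, taken by name from the 26475 genes of an RNA-seq count table of A549 cells. They are 13 collagen genes, 7 genes for laminins and other basement membrane proteins, 11 glycoproteins and matrix-binding proteins including the BMP modulator BMPER, the 2 proteoglycans LUM and VCAN, 5 enzymes that hydroxylate or crosslink collagen, 6 metalloproteinases and inhibitors, and the cell markers VIM and CDH2. A549 is an established line of lung adenocarcinoma epithelium. The 15 libraries form 5 groups of 3, all harvested after 48 h. Cells given IL4 at 10 ng/ml together with Compound A, with an siRNA pool against ALOX15 at 1 uM or with a control siRNA pool stand beside cells given IL4 alone and untreated cells. Compound A was compared with IL4 alone, ALOX15 siRNA with control siRNA, and IL4 alone with untreated cells. What Compound A is, its dose and the dose of the control siRNA are not given in the sources used here, and no vehicle or mock-transfected group is labelled. All libraries come from 1 cell line. Nothing in the labels says that replicates were separate cultures, and the p-values then cover no more than the spread among these libraries, which may be purely technical.

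The extracellular matrix is built from collagen fibrils and networks, from glycoproteins such as fibronectin, tenascin and the fibrillins, and from proteoglycans. Epithelial cells rest on a basement membrane of laminins, type IV collagen, perlecan, agrin and nidogen, and prolyl and lysyl hydroxylases, lysyl oxidases, metalloproteinases and their TIMP inhibitors modify, crosslink and cut these proteins. In airway disease IL-4 is known as a type 2 cytokine linked to mucus production and matrix deposition, and ALOX15, a lipoxygenase that oxidises polyunsaturated fatty acids, is a known IL-4 target gene in airway epithelium. Vimentin and N-cadherin are commonly used as mesenchymal markers in carcinoma cells.

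Library totals ran from 6407936 to 11031246 counts, and levels are given as CPM, counts per 1e6 counts of the library, which are not divided by gene length and so are not compared between genes. The knockdown target was checked first: ALOX15 stood at 0.134, 0.310 and 0.318 CPM with ALOX15 siRNA, against 3.90, 3.59 and 3.24 CPM with control siRNA (log2 change -3.85, SE 0.43, edgeR adjusted p = 8.46e-05), and IL4 alone had 6.19, 4.75 and 5.05 CPM against 0, 0.110 and 0.299 CPM in untreated libraries. With Compound A, ALOX15 had 2.59, 2.20 and 1.78 CPM, lower than with IL4 alone (log2 change -1.23, SE 0.25, edgeR adjusted p = 0.00328). Against control siRNA the Compound A libraries did not pass (-0.68, SE 0.27, edgeR adjusted p = 0.163). Of 13 epithelial markers 7 were tested, with summed levels of 9760 to 12520 CPM in IL4 and 6378 to 7288 CPM in untreated libraries. The surfactant genes that define alveolar type II cells were absent or near it, SFTPB at 0 and SFTPC at most 0.181 CPM. The 10 fibroblast and mesenchymal markers summed to 20.2 to 25.3 CPM in IL4 libraries, 18.7 to 22.6 CPM with Compound A, 20.8 to 24.6 CPM with ALOX15 siRNA, 20.4 to 24.8 CPM with control siRNA and 17.3 to 18.2 CPM in untreated libraries, with POSTN and FAP at or under 0.141 CPM in every library. Of the endothelial markers KDR and of the leukocyte markers PTPRC, CD3E and CSF1R had no count. IL4 replicate 1 stood apart: genes of 60% GC or more exceeded genes of 45% GC or less by 0.626 on the log2 scale relative to the mean of all libraries there, against -0.207 to 0.189 in the other 14 libraries. Of the 43 tested members 13 had at least 60% GC, against 13.9% of all tested genes, so values without this library or after a correction for GC stand beside results below.

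Of the 46 genes, 43 had enough counts to be tested. COL1A2, the partner chain of COL1A1 in type I collagen, had 0 counts in all 15 libraries, which allows up to 0.0259 CPM when 3 counts are taken over all libraries. COL6A3, the largest chain of type VI collagen, had 23 counts spread over 10 libraries and at most 0.742 CPM. EFEMP2, the elastic fibre protein fibulin-4, had 56 counts in all and at most 1.27 CPM. None of the 46 genes had a fractional count in any library. The exons of 20 members overlap a gene on the opposite strand and those of 6 a gene on the same strand (GENCODE v29), and since the strand setting of the counting is not given in the sources used here, reads from TNC and DEC1, LAMA5 and ADRM1, HSPG2 and LDLRAD2, COL18A1 and SLC19A1, THBS1 and FSIP1 or VIM and VIM-AS1 cannot be told apart where they overlap.

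The first comparison asked how IL4 alone changed these genes. With IL4, 28 of the 43 tested members rose and 3 fell relative to untreated cells, against 11.2% of all 12795 tested genes higher and 11.6% lower. The members' median log2 change was 0.54, beside -0.022 over all tested genes, and 10 members rose and 2 fell by at least 2-fold. All 3 fibrillar collagen genes tested rose, as did both tested type VI chains, 8 of 10 basement membrane genes and both cell markers. The 3 that fell were BMPER, TIMP3 and VCAN. The plot of log2 changes shows each member with its standard error. In bulk RNA, fewer cells of a kind and less RNA per cell cannot be told apart.

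**Figure D1:**
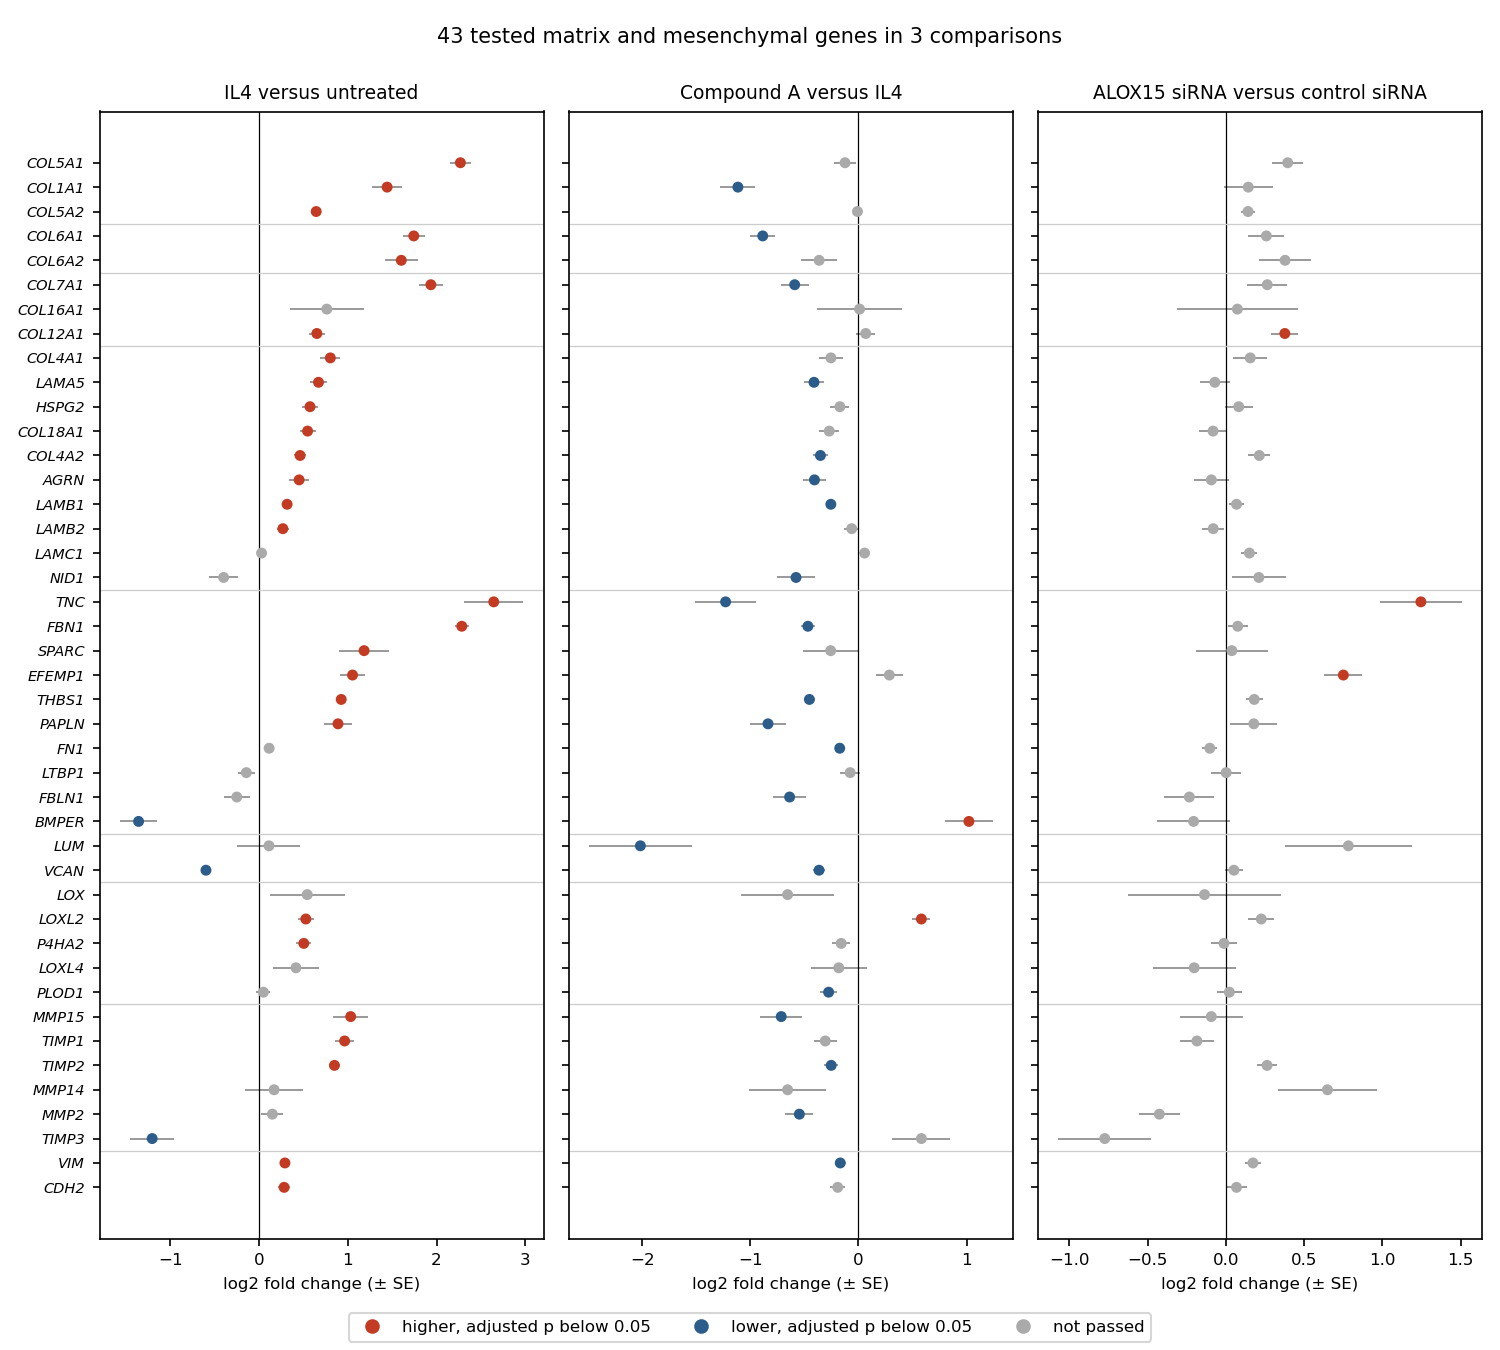
Log2 fold change (edgeR, horizontal axis) of the 43 tested members, grouped by role, in IL4 against untreated cells, Compound A against IL4 and ALOX15 siRNA against control siRNA; bars are 1 SE, red and blue points passed an adjusted p of 0.05 as higher and lower, and grey points did not pass. With IL4 28 points are red and 3 blue, with Compound A 2 are red and 21 blue, and with ALOX15 siRNA 3 are red.

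COL1A1, the principal chain of type I collagen and the main protein of connective tissue fibrils, had 23.2, 15.98 and 15.7 CPM in IL4 libraries, against 7.71, 5.28 and 6.87 CPM in untreated libraries. Every IL4 library lay above every untreated one, a 2.72-fold rise (log2 change 1.44, SE 0.17, edgeR adjusted p = 1.55e-06). COL5A1, a chain of the type V collagen that takes part in starting collagen fibrils, had 78.8, 65.5 and 67.2 CPM with IL4 and 13.3, 14.9 and 15.7 CPM in untreated libraries. This was a 4.82-fold rise (log2 change 2.27, SE 0.12, edgeR adjusted p = 8.59e-12). Its partner chain COL5A2 rose less, 1.56-fold (log2 change 0.64, SE 0.043, edgeR adjusted p = 5.81e-10). COL6A1 and COL6A2, chains of the beaded filaments of type VI collagen, both rose. COL6A1 had 35.6, 27.6 and 27.3 CPM with IL4 against 8.61, 9.25 and 8.96 CPM in untreated libraries (log2 change 1.74, SE 0.13, edgeR adjusted p = 1.65e-09). COL6A2 had 17.2, 13.1 and 12.2 CPM with IL4 against 5.44, 3.74 and 4.48 CPM in untreated libraries (log2 change 1.60, SE 0.18, edgeR adjusted p = 1.66e-06). The COL6A2 change was 1.46 without IL4 replicate 1 and 1.40 after GC correction. In both genes the IL4 libraries lay above all untreated libraries, and replicate 1 was the highest of the IL4 libraries. COL7A1, the collagen of the anchoring fibrils that fasten epithelium to its stroma, had 441, 358 and 399 CPM with IL4 and 96.3, 95.8 and 120.2 CPM in untreated libraries, a 3.83-fold rise (log2 change 1.94, SE 0.14, edgeR adjusted p = 7.39e-08). COL12A1, which lies on the surface of collagen fibrils, had 48.96, 50.2 and 53.4 CPM with IL4 against 28.5, 35.2 and 33.5 CPM in untreated libraries, a change of 0.65 (SE 0.092, edgeR adjusted p = 2.42e-05). COL16A1, of the same fibril-associated kind, ranged widely within groups and did not pass (log2 change 0.76, edgeR adjusted p = 0.204).

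**Figure D2:**
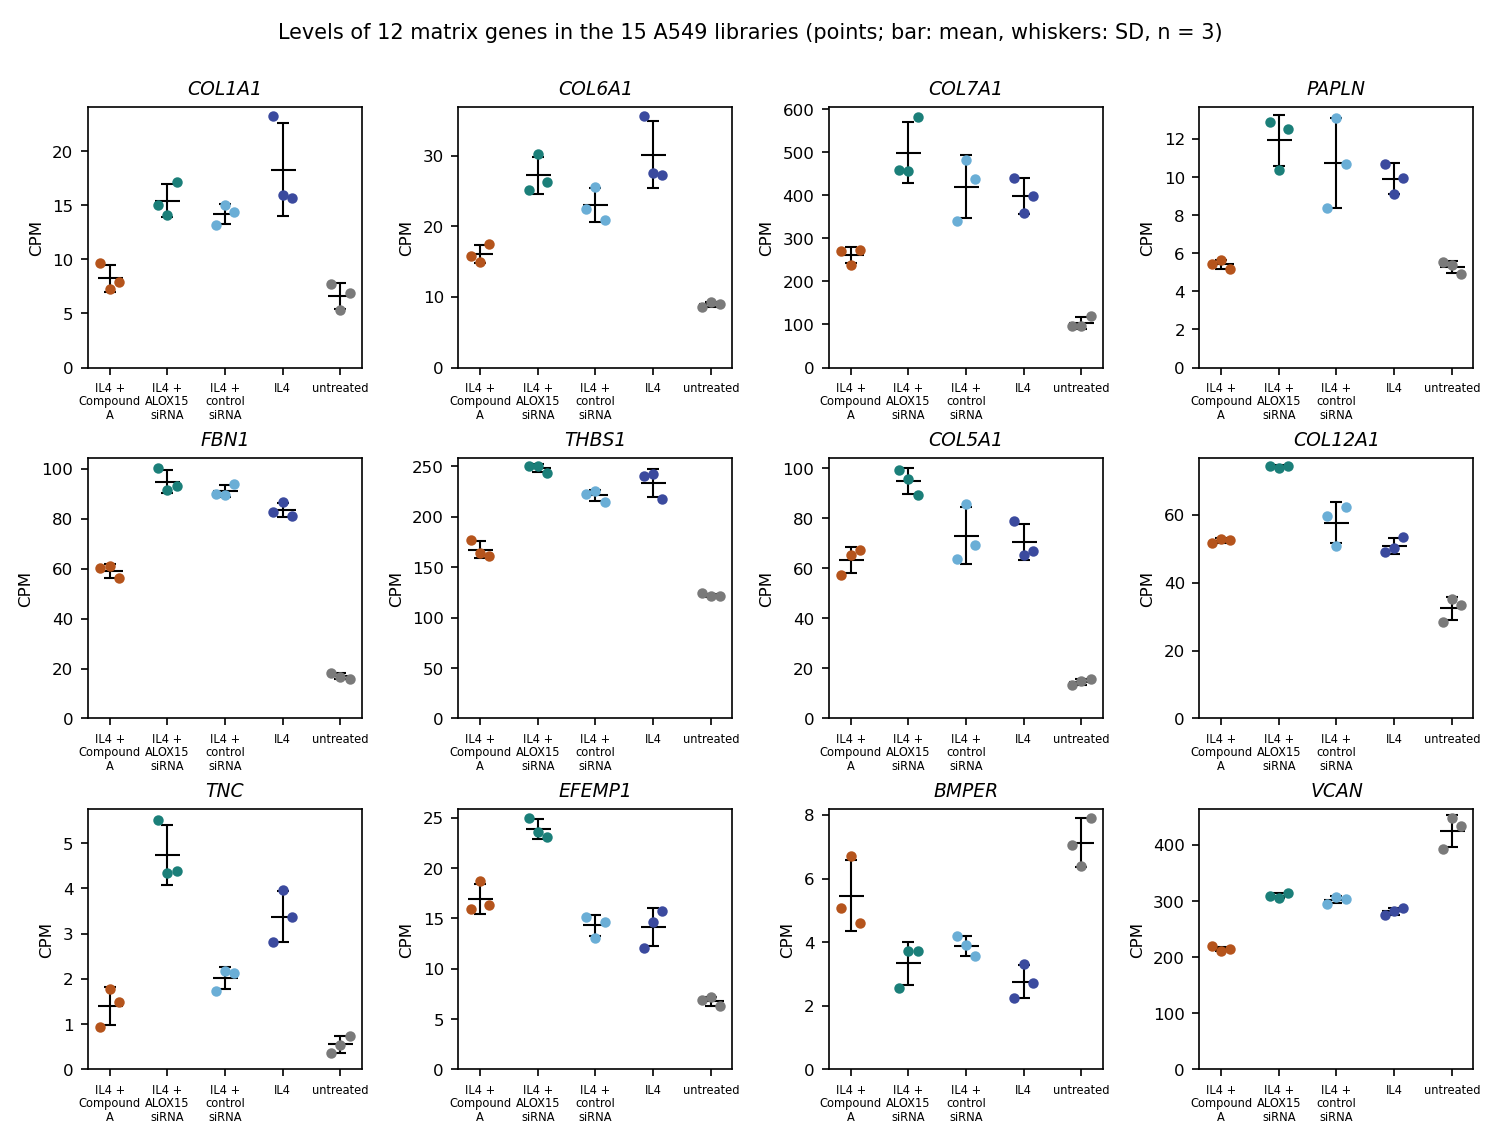
CPM of 12 members in each library (points) of the 5 groups, with the group mean (horizontal bar) and SD (whiskers, n = 3) on a vertical axis from 0 for each gene. By group mean, COL1A1, COL7A1 and TNC are lowest in untreated cells and next lowest with Compound A, while BMPER and VCAN are highest in untreated cells. Single libraries overlap: BMPER has 6.72 CPM in Compound A replicate 2 and 6.39 to 7.92 CPM in the untreated libraries. COL1A1 has 7.24 CPM in Compound A replicate 2 and 7.71 CPM in untreated replicate 1.

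The basement membrane genes rose by smaller amounts. COL4A1 and COL4A2 encode the chains of the main type IV collagen network and lie head to head on chromosome 13, COL4A1 at 110148963 to 110307233 on the minus strand and COL4A2 at 110305812 to 110513209 on the plus strand (GRCh38, GENCODE v29). COL4A1 had 27.99, 26.4 and 31.4 CPM with IL4 against 17.9, 15.1 and 15.7 CPM in untreated libraries, and COL4A2 had 96.6, 84.9 and 77.4 CPM with IL4 against 63.4, 61.3 and 61.8 CPM in untreated libraries. Neither gene's groups overlapped, with log2 changes of 0.80 (SE 0.11, edgeR adjusted p = 2.24e-05) and 0.46 (SE 0.071, edgeR adjusted p = 5.77e-05). In RefSeq (GRCh38.p14) their start sites, 110307157 and 110307284, have 126 bases between them. GENCODE v29 puts the gene bounds elsewhere, so that there the same interval lies within COL4A2 and partly within COL4A1. It is printed because it lies between the RefSeq starts of both genes, on the plus strand at chr13:110307158-110307283, 80.2% GC, with capitals marking a CCAAT box and a GC box (GGGCGG).
COL4A1-COL4A2 shared promoter: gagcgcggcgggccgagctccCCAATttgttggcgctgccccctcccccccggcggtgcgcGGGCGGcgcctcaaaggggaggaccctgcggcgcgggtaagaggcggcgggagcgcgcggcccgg

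LAMA5, a laminin alpha chain of mature epithelial basement membranes, had 1099.5, 795 and 810.5 CPM with IL4 against 608, 532 and 547 CPM in untreated libraries. The groups did not overlap, and the log2 change was 0.67 (SE 0.096, edgeR adjusted p = 6.17e-05), or 0.44 after correction for GC. The heparan sulfate proteoglycans HSPG2 (perlecan) and AGRN (agrin) changed by 0.57 (SE 0.089, edgeR adjusted p = 9.21e-05) and 0.45 (SE 0.11, edgeR adjusted p = 0.00694), and by 0.38 and 0.21 after GC correction. COL18A1, the source of endostatin, changed by 0.55 (SE 0.091, edgeR adjusted p = 0.000173), with 0.31 after that correction. LAMB1, a laminin beta chain, rose 1.24-fold (log2 change 0.31, SE 0.045, edgeR adjusted p = 2.87e-05). LAMB2, the other beta chain, changed by 0.27 (SE 0.069, edgeR adjusted p = 0.00779), but its value was 0.15 after GC correction and 0.18 without IL4 replicate 1, and AGRN had 0.27 without that library. Neither LAMB2 nor AGRN passed in a fit on the compared groups only (edgeR adjusted p = 0.0739 and 0.0580). LAMC1, the gamma chain shared by most laminins, had 428, 405 and 427 CPM with IL4 and 395, 424 and 411 CPM in untreated libraries and did not pass (log2 change 0.027, edgeR adjusted p = 0.752). NID1, which links laminin to type IV collagen, had 9.003, 8.72 and 7.89 CPM with IL4 against 10.4, 13.3 and 9.71 CPM in untreated libraries. Its groups did not overlap, yet the change of -0.40 (SE 0.16, edgeR adjusted p = 0.0795) did not pass. After GC correction it did (-0.42, edgeR adjusted p = 0.0480).

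Among the glycoproteins, TNC had the largest rise of all members. TNC encodes tenascin-C, a matrix protein known for its appearance in wound healing and tumour stroma, and lies on chromosome 9 at 115019578 to 115118257, minus strand (GRCh38, GENCODE v29). It had 2.81, 3.96 and 3.36 CPM with IL4 and 0.363, 0.550 and 0.747 CPM in untreated libraries. All IL4 libraries lay above the untreated ones, a 6.26-fold rise (log2 change 2.65, SE 0.33, edgeR adjusted p = 5.77e-06), on counts of only 4 to 41 per library over the whole study. The 250 bases before its RefSeq start site (chr9:115118158-115118407, minus strand, GRCh38.p14, 54.8% GC) are printed as the promoter of the member that moved most in both IL4 and ALOX15 siRNA comparisons, and the capitals mark a GC box that begins 229 bases before the start.
TNC promoter: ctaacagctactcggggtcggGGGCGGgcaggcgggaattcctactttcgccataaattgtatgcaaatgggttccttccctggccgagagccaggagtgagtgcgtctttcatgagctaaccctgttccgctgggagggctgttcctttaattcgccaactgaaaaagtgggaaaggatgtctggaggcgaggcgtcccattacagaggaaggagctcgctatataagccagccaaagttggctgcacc

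FBN1, the main protein of extracellular microfibrils, had 82.7, 86.5 and 80.99 CPM with IL4 against 18.2, 16.5 and 15.98 CPM in untreated libraries. The 3 IL4 values lay close together and far above the untreated ones, a 4.87-fold rise (log2 change 2.28, SE 0.076, edgeR adjusted p = 8.08e-15), the smallest adjusted p among the members. EFEMP1, the fibulin-family glycoprotein fibulin-3, had 12.1, 14.7 and 15.8 CPM with IL4 against 6.89, 7.16 and 6.27 CPM in untreated libraries (log2 change 1.05, SE 0.14, edgeR adjusted p = 8.43e-06). SPARC, a collagen-binding protein also called osteonectin, had 2.81, 3.30 and 3.11 CPM with IL4 against 1.18, 1.87 and 0.896 CPM in untreated libraries (log2 change 1.18, SE 0.28, edgeR adjusted p = 0.00441). Neither gene's groups overlapped. THBS1, the thrombospondin known to activate latent TGF-beta, rose 1.90-fold (log2 change 0.93, SE 0.055, edgeR adjusted p = 9.34e-11), and PAPLN, a papilin with proteinase inhibitor domains, had 10.7, 9.11 and 9.96 CPM with IL4 against 5.53, 5.39 and 4.93 CPM in untreated libraries (log2 change 0.89, SE 0.16, edgeR adjusted p = 0.000404). FN1, fibronectin, stood at 5506, 4847 and 5011 CPM with IL4 and 4422, 4909 and 4784 CPM in untreated libraries. Its groups overlapped, and the change of 0.11 (SE 0.047, edgeR adjusted p = 0.0951) did not pass, although after GC correction it did (0.22, edgeR adjusted p = 0.0147). FBLN1 (fibulin-1), LUM (lumican, a collagen-binding proteoglycan) and LTBP1 (a carrier of latent TGF-beta) did not pass either, with log2 changes of -0.25, 0.11 and -0.15. FBLN1 passed after GC correction (-0.34, edgeR adjusted p = 0.0242).

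BMPER, a secreted protein that binds bone morphogenetic proteins and modulates their signalling, had 2.25, 3.30 and 2.72 CPM with IL4, against 7.07, 6.39 and 7.92 CPM in untreated libraries. The IL4 libraries lay below all untreated libraries (2.57-fold lower, log2 change -1.36, SE 0.21, edgeR adjusted p = 6.71e-05). VCAN, the large hyaluronan-binding proteoglycan versican, had 275, 283 and 287 CPM with IL4 and 393, 447 and 433 CPM in untreated libraries, again without overlap (log2 change -0.60, SE 0.056, edgeR adjusted p = 7.35e-08). TIMP3, the matrix-bound metalloproteinase inhibitor, had 2.67, 1.98 and 3.11 CPM with IL4 and 5.26, 6.72 and 5.97 CPM in untreated libraries (log2 change -1.21, SE 0.25, edgeR adjusted p = 0.00130). Its family members moved the other way, TIMP1 by 0.96 (SE 0.11, edgeR adjusted p = 2.28e-06) and TIMP2 by 0.85 (SE 0.066, edgeR adjusted p = 5.55e-09). Without IL4 replicate 1 TIMP1 changed by 0.80, and after GC correction by 0.87. Of the proteinases, the membrane-type MMP15 had 30.7, 21.5 and 16.2 CPM with IL4 against 13.2, 9.25 and 10.2 CPM in untreated libraries (log2 change 1.03, SE 0.20, edgeR adjusted p = 0.000780). Its change was 0.78 without IL4 replicate 1 and 0.82 after GC correction, under 2-fold in both. The gelatinase MMP2 and the collagenase MMP14 did not pass, at log2 changes of 0.15 and 0.17. Of the enzymes that build collagen, P4HA2 (a prolyl hydroxylase subunit) changed by 0.50 (SE 0.083, edgeR adjusted p = 0.000138) and LOXL2 (a lysyl oxidase that crosslinks collagen) by 0.53 (SE 0.087, edgeR adjusted p = 0.000137), while PLOD1 (lysyl hydroxylase), LOX and LOXL4 did not pass.

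The mesenchymal markers rose by small amounts with IL4. VIM had 659, 577 and 584 CPM with IL4 against 504, 489 and 484 CPM in untreated libraries, and CDH2 had 114, 124 and 124 CPM with IL4 against 93.01, 100.4 and 103 CPM in untreated libraries. Neither overlapped, with log2 changes of 0.29 (SE 0.050, edgeR adjusted p = 0.000198) and 0.28 (SE 0.069, edgeR adjusted p = 0.00497). Of the members at or above 60% GC, 12 of 13 rose with IL4, as did 14 of the 24 between the limits and 2 of the 6 at or below 45% GC. The shares of all tested genes called in each GC class are not given, so this gradient is not read as a trait of the members. Without IL4 replicate 1 the counts were 28 higher and 3 lower, with a median log2 change of 0.47 beside -0.024 over all tested genes. After GC correction they were 29 and 5, with a median of 0.44 beside -0.009, FBLN1 and NID1 being the 2 fallers added. The shares of all genes called in these settings are not given, so these counts are not read alone.

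The second comparison added Compound A to IL4. With Compound A, 21 of 43 tested members fell and 2 rose relative to IL4 alone, against 8.07% of all tested genes lower and 6.35% higher. The members' median log2 change was -0.27, beside 0.002 over all tested genes, and 3 members fell and 1 rose by at least 2-fold. The count that fell was 16 without IL4 replicate 1, when 5.84% of all tested genes fell, and 17 after GC correction, when 9.64% did. Fitted on these groups alone, 8 members fell, against 2.14% of all genes. Of the members at or above 60% GC, 7 of 13 fell, as did 11 of 24 between the limits and 3 of 6 at or below 45% GC. The shares of all tested genes in each GC class are not given here either, so these counts are not read as a result about the members.

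COL1A1 had 9.67, 7.24 and 7.86 CPM with Compound A, against 18.3 ± 4.27 CPM in IL4 libraries (SD, n = 3). The highest Compound A library lay below the lowest IL4 library, a 2.16-fold lower level (log2 change -1.11, SE 0.16, edgeR adjusted p = 0.000194). COL6A1 had 15.8, 14.9 and 17.5 CPM with Compound A against 30.2 ± 4.70 CPM with IL4 alone (log2 change -0.88, SE 0.12, edgeR adjusted p = 8.47e-05), again without overlap. Its partner COL6A2 had 11.8, 9.45 and 11.1 CPM with Compound A against 14.1 ± 2.66 CPM with IL4, and the change of -0.36 (SE 0.16, edgeR adjusted p = 0.139) did not pass. COL7A1 had 270.1, 239 and 273 CPM with Compound A against 399.5 ± 41.8 CPM with IL4 (log2 change -0.59, SE 0.13, edgeR adjusted p = 0.00843). This call was lost without IL4 replicate 1 (log2 change -0.53, edgeR adjusted p = 0.0808), without Compound A replicate 2 (-0.54, 0.0503) and after GC correction (-0.35, 0.200). COL5A1 and COL5A2 stood at 57.6, 65.3 and 67.5 and 843, 824 and 819 CPM with Compound A and did not pass, with log2 changes of -0.12 and -0.0092. COL12A1 and COL16A1 did not pass either (0.068 and 0.011).

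Of the basement membrane genes 5 of 10 fell. COL4A2 had 66.9, 70.01 and 61.5 CPM with Compound A against 86.3 ± 9.71 CPM with IL4 (log2 change -0.35, SE 0.071, edgeR adjusted p = 0.00287), but the change was -0.16 after GC correction (edgeR adjusted p = 0.0837). COL4A1, from the shared promoter shown above, had 24.2, 22.9 and 23.7 CPM with Compound A against 28.6 ± 2.57 CPM with IL4. The groups did not overlap and the change of -0.25 (SE 0.11, edgeR adjusted p = 0.120) did not pass. LAMB1 fell to 787, 803 and 791 CPM with Compound A, against 965 ± 22.9 CPM with IL4 (log2 change -0.26, SE 0.045, edgeR adjusted p = 0.00114), and passed under every alternative run. LAMA5 changed by -0.41 (SE 0.095, edgeR adjusted p = 0.00919), but by -0.26 without IL4 replicate 1 (edgeR adjusted p = 0.00880) and by -0.13 after GC correction (0.0769). AGRN changed by -0.41 (SE 0.11, edgeR adjusted p = 0.0225), with -0.23 without IL4 replicate 1 (0.0434) and -0.097 after GC correction (0.147). The AGRN call was also lost without Compound A replicate 1, 2 or 3 (edgeR adjusted p = 0.0709, 0.0699 and 0.0616). NID1 had 4.95, 7.14 and 4.45 CPM with Compound A against 8.54 ± 0.577 CPM with IL4 (log2 change -0.58, SE 0.18, edgeR adjusted p = 0.0366), and lost its call without IL4 replicate 1 or 2 or Compound A replicate 1 or 3 (edgeR adjusted p = 0.0724 to 0.138).

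**Figure D3:**
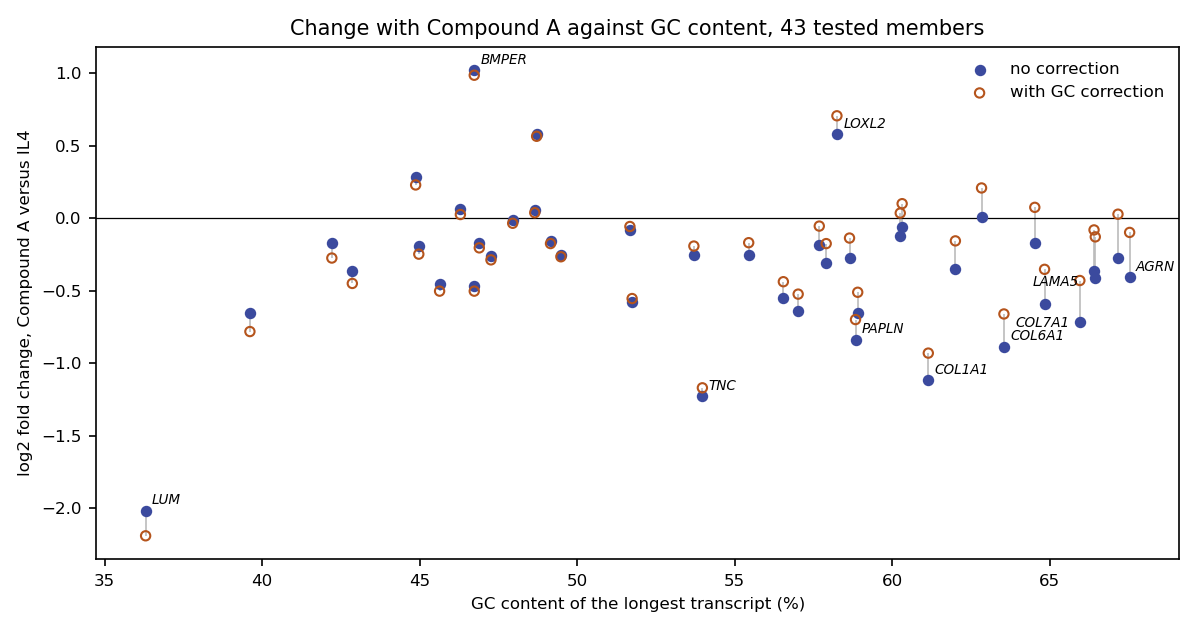
Log2 fold change with Compound A against IL4 (vertical axis) of the 43 tested members, plotted against the GC percent of the longest transcript (horizontal axis), without correction (filled) and with GC correction (open), a grey line joining both values of a gene. The open points of the GC-rich members lie above the filled ones, LAMA5 at -0.13 with the correction and -0.41 without it.

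The glycoproteins and proteoglycans held the largest falls. LUM had 0.236, 0.315 and 0.445 CPM with Compound A against 1.13, 1.98 and 1.04 CPM in IL4 libraries, a 4.04-fold lower level on counts of 2 to 15 per library (log2 change -2.02, SE 0.47, edgeR adjusted p = 0.00791), and its groups did not overlap. TNC had 0.943, 1.78 and 1.48 CPM with Compound A against 3.38 ± 0.574 CPM with IL4, 2.34-fold lower without overlap (log2 change -1.23, SE 0.28, edgeR adjusted p = 0.00660). Fitted on these groups alone LUM was not tested, and the edgeR adjusted p of TNC was 0.0559. In that fit BMPER, MMP2 and TIMP2, described below, did not pass either (0.0515, 0.0592 and 0.115). Nor did COL4A2, LAMA5, AGRN and NID1 (0.0638, 0.0716, 0.0898 and 0.123). The calls of FBLN1, FN1, MMP15, PLOD1 and VIM were lost there as well (0.0647, 0.116, 0.0838, 0.132 and 0.158). PAPLN had 5.42, 5.67 and 5.19 CPM with Compound A against 9.92 ± 0.790 CPM with IL4 (log2 change -0.84, SE 0.16, edgeR adjusted p = 0.00253). The Compound A values lay together, all below the IL4 libraries, and overlapped the untreated libraries at 5.53, 5.39 and 4.93 CPM. FBN1 fell to 60.3, 61.1 and 56.1 CPM with Compound A against 83.4 ± 2.82 CPM with IL4 (log2 change -0.47, SE 0.067, edgeR adjusted p = 0.000172). FBLN1 had 13.6, 13.96 and 17.6 CPM with Compound A against 27.6, 25.2 and 18.4 CPM with IL4 (log2 change -0.64, SE 0.16, edgeR adjusted p = 0.0106), a call lost without Compound A replicate 2 (-0.59, edgeR adjusted p = 0.0624). THBS1 changed by -0.45 (SE 0.054, edgeR adjusted p = 3.72e-05) and VCAN by -0.36 (SE 0.056, edgeR adjusted p = 0.000333).

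FN1 had 4450.2, 4543 and 4373 CPM with Compound A, against 5506, 4847 and 5011 CPM with IL4. The groups did not overlap (log2 change -0.17, SE 0.047, edgeR adjusted p = 0.0196), but the call was lost without IL4 replicate 1 (-0.13, edgeR adjusted p = 0.0562) and without Compound A replicate 1 (0.0562) or 3 (0.0781), and the value was -0.27 after GC correction. BMPER rose with Compound A: it had 5.07, 6.72 and 4.60 CPM against 2.76 ± 0.526 CPM in IL4 libraries, 2.03-fold higher without overlap (log2 change 1.02, SE 0.22, edgeR adjusted p = 0.00445). LOXL2, the other riser, had 77.95, 85.1 and 91.8 CPM with Compound A against 58.9, 59.03 and 55.4 CPM with IL4 (log2 change 0.58, SE 0.082, edgeR adjusted p = 0.000162). EFEMP1, SPARC and LTBP1 did not pass, with log2 changes of 0.29, -0.26 and -0.077.

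Among the proteinases, MMP15 had 14.98, 11.7 and 14.2 CPM with Compound A against 22.8 ± 7.33 CPM with IL4 (log2 change -0.71, SE 0.19, edgeR adjusted p = 0.0205). Its call was lost without IL4 replicate 1 (-0.46, edgeR adjusted p = 0.0714) and without Compound A replicate 2 (0.110) or 3 (0.0501), and its value after GC correction was -0.43 (0.0178). MMP2 had 9.91, 9.13 and 9.05 CPM with Compound A against 16.04, 12.7 and 13.2 CPM with IL4 (log2 change -0.55, SE 0.13, edgeR adjusted p = 0.00869), without overlap. TIMP2 changed by -0.25 (SE 0.065, edgeR adjusted p = 0.0145) and lost its call without Compound A replicate 1 (0.0595) or 3 (0.0514). TIMP1 and TIMP3 did not pass, at -0.31 and 0.58. PLOD1 changed by -0.28 (SE 0.080, edgeR adjusted p = 0.0259), a call lost without IL4 replicate 1 (-0.18, edgeR adjusted p = 0.104), without Compound A replicate 1, 2 or 3 (0.0606 to 0.0860) and after GC correction (-0.14, 0.0851). LOX, LOXL4, P4HA2 and MMP14 did not pass. VIM had 521, 531 and 536 CPM with Compound A against 659, 577 and 584 CPM with IL4 (log2 change -0.17, SE 0.050, edgeR adjusted p = 0.0290), and the call was lost without IL4 replicate 1 (-0.12, edgeR adjusted p = 0.106) and without Compound A replicate 1, 2 or 3 (0.0591 to 0.0858). CDH2 had 107, 105 and 99.1 CPM with Compound A against 114, 124 and 124 CPM with IL4, and its change of -0.19 (SE 0.069, edgeR adjusted p = 0.0650) did not pass. It passed after GC correction (-0.25, edgeR adjusted p = 0.00137) and without IL4 replicate 1 (-0.25, 0.0122).

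A further contrast put Compound A beside the control siRNA libraries, with the IL4-alone libraries entering the estimate of the spread but not the difference. Relative to control siRNA 12 members were lower and 1 was higher with Compound A, against 3.42% of all tested genes lower and 1.86% higher, with a median log2 change of -0.23. The count that was lower ranged from 8 without Compound A replicate 2 to 19 without IL4 replicate 1. The shares of all genes in those fits are not given, so this range is not read as a result about the members. PAPLN had a log2 change of -0.96 (SE 0.16, edgeR adjusted p = 0.00165), COL1A1 of -0.76 (SE 0.17, edgeR adjusted p = 0.0110), MMP2 of -0.70 (SE 0.13, edgeR adjusted p = 0.00335) and COL7A1 of -0.68 (SE 0.13, edgeR adjusted p = 0.00787). The COL1A1 call was lost without replicate 2 (0.0881) or 3 (0.0549) of Compound A or replicate 2 (0.0507) of control siRNA, and that of COL7A1 without Compound A replicate 2 (0.0571) and after GC correction (-0.53, 0.0831). FBN1, THBS1, VCAN and LAMB1 were lower as well, at -0.61, -0.39, -0.48 and -0.32, and kept their calls under every alternative run, while FN1 passed at -0.22, COL6A1 at -0.51, LAMA5 at -0.40 and COL4A2 at -0.25. FN1 lost its call without control siRNA replicate 1 (0.0549) or Compound A replicate 3 (0.0689), COL6A1 and LAMA5 without replicate 1 or 2 of either group (0.0591 to 0.119 and 0.0633 to 0.113), and COL4A2 without any one of 13 libraries, IL4 replicates 1 and 3 being the exceptions (0.0566 to 0.228). After GC correction LAMA5 stood at -0.23 and COL4A2 at -0.13 (edgeR adjusted p = 0.211). CDH2, AGRN, NID1 and SPARC did not pass (log2 changes -0.22, -0.32, -0.58 and -0.76), but each was lower past the threshold both after GC correction (edgeR adjusted p = 0.00231, 0.0399, 0.0406 and 0.0473) and without IL4 replicate 1 (0.0125, 0.00130, 0.0313 and 0.0489). LOXL2 was the 1 member that was higher, at 0.38 (SE 0.082, edgeR adjusted p = 0.00941), a call lost without Compound A replicate 2 (0.0503) or 3 (0.0697). TNC, LUM and BMPER did not pass here, at -0.49 (SE 0.31, edgeR adjusted p = 0.403), -1.31 (SE 0.53, edgeR adjusted p = 0.174) and 0.52 (SE 0.21, edgeR adjusted p = 0.168). Compound A cells carried no siRNA, so compound and transfection cannot be told apart in this comparison.

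The third comparison asked what ALOX15 siRNA changed under IL4. Against control siRNA, 3 of 43 tested members rose and 0 fell by edgeR, against 0.313% of all tested genes higher and 0.383% lower, with a median log2 change of 0.076 beside 0 over all genes. At an unadjusted p under 0.05, 13 members were higher and 3 lower, beside 1140 of all 12795 tested genes in either direction. DESeq2 called 5 members higher and 0 lower, beside 120 genes in all. TNC had 5.51, 4.34 and 4.38 CPM with ALOX15 siRNA, against 1.73, 2.18 and 2.13 CPM with control siRNA. The groups did not overlap, and the level was 2.37-fold higher (log2 change 1.25, SE 0.26, edgeR adjusted p = 0.0257). EFEMP1 had 24.99, 23.5 and 23.1 CPM with ALOX15 siRNA against 15.2, 13.1 and 14.7 CPM with control siRNA (log2 change 0.75, SE 0.12, edgeR adjusted p = 0.00350), without overlap, and passed under every alternative run. COL12A1 had 74.4, 73.7 and 74.2 CPM with ALOX15 siRNA against 59.7, 50.9 and 62.3 CPM with control siRNA (log2 change 0.38, SE 0.087, edgeR adjusted p = 0.0471), also without overlap. The TNC call was lost on leaving out any one of the 6 siRNA libraries (log2 changes 1.12 to 1.31, edgeR adjusted p = 0.0665 to 0.186). The COL12A1 call was lost on leaving out any one of those 6 (0.0588 to 0.270), any one of the Compound A libraries (0.0726 to 0.0770), IL4 replicate 2 (0.0628) or untreated replicate 3 (0.0712). The count that rose was 7 without IL4 replicate 1, when 1.14% of all tested genes rose, and 1 without control siRNA replicate 1. For the latter fit the share of all genes is not given.

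COL1A1 had 15.05, 14.1 and 17.1 CPM with ALOX15 siRNA and 13.2, 14.98 and 14.4 CPM with control siRNA, and the change of 0.14 (SE 0.16, edgeR adjusted p = 0.874) did not pass. COL4A1 and COL4A2 stood at 29.2, 31.3 and 28.98 and 90.6, 91.4 and 91.2 CPM with ALOX15 siRNA, against 29.1, 29.8 and 22.3 and 81.5, 80.4 and 76.3 CPM with control siRNA. Their changes of 0.16 (SE 0.11, edgeR adjusted p = 0.755) and 0.21 (SE 0.071, edgeR adjusted p = 0.255) did not pass, although the COL4A2 groups did not overlap and COL4A2 passed after GC correction (0.27, edgeR adjusted p = 0.0116). COL5A1 had 99.6, 95.6 and 89.3 CPM with ALOX15 siRNA against 63.9, 85.8 and 69.3 CPM with control siRNA, without overlap and without passing (log2 change 0.40, SE 0.097, edgeR adjusted p = 0.0711). It passed after GC correction (0.44, edgeR adjusted p = 0.00147) and without IL4 replicate 1 (0.40, 0.00450), as did TIMP2 (0.26 with all libraries, edgeR adjusted p = 0.000338 and 0.00202 in these settings). FN1 had 4961, 4729 and 4781 CPM with ALOX15 siRNA against 5239.8, 5268 and 5204 CPM with control siRNA (log2 change -0.10, SE 0.047, edgeR adjusted p = 0.532). VIM and CDH2 did not pass, at 0.17 and 0.068. Without IL4 replicate 1 VIM passed (0.17, edgeR adjusted p = 0.0176), and so did THBS1 (0.18, 0.0453). LUM, PAPLN and BMPER, which passed with Compound A, had 0.78 (SE 0.41, edgeR adjusted p = 0.614), 0.18 (SE 0.15, edgeR adjusted p = 0.815) and -0.21 (SE 0.23, edgeR adjusted p = 0.877) with ALOX15 siRNA. MMP2 stood at 11.3, 10.998 and 11.6 CPM with ALOX15 siRNA against 14.02, 17.01 and 15.1 CPM with control siRNA, and its change of -0.43 (SE 0.13, edgeR adjusted p = 0.182) did not pass.

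The effect of Compound A relative to IL4 minus that of ALOX15 siRNA relative to control siRNA was tested directly, and these contrasts share no library. The difference was lower than 0 for 14 members and above 0 for 1, against 3.20% and 1.94% of all tested genes, with a median of -0.34 beside 0.002. LUM differed by -2.80 (SE 0.63, edgeR adjusted p = 0.0115), TNC by -2.47 (SE 0.38, edgeR adjusted p = 0.000571), COL1A1 by -1.26 (SE 0.23, edgeR adjusted p = 0.00217) and COL6A1 at -1.14 (SE 0.16, edgeR adjusted p = 0.000280). For TNC the Compound A effect was -1.23 and the ALOX15 siRNA effect 1.25, and for LUM they were -2.02 and 0.78. PAPLN (-1.01), THBS1 (-0.63), COL4A2 (-0.57), FBN1 (-0.54), VCAN (-0.42), VIM (-0.34), TIMP2 (-0.52) and LAMB1 (-0.32) also passed below 0 and kept their calls under every alternative run. COL7A1 (-0.85) passed too and lost its call without IL4 replicate 1 (0.0680) or Compound A replicate 2 (0.0503) and after GC correction (-0.69, 0.103), and COL5A1 (-0.52) lost its own without replicate 1 or 2 of Compound A or of ALOX15 siRNA or replicate 1 or 3 of control siRNA (edgeR adjusted p = 0.0687 to 0.110). BMPER was the 1 member above 0 (1.23, SE 0.32, edgeR adjusted p = 0.0299), and its call was lost without Compound A replicate 2 (0.101), ALOX15 siRNA replicate 1 (0.0863) or control siRNA replicate 1 (0.0800) or 2 (0.0530).

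The control siRNA itself was compared with IL4 alone, and no member passed in edgeR in either direction, against 0% of all genes, with the smallest member's adjusted p at 0.898. At an unadjusted p under 0.05, 4 members were higher and 3 lower, beside 628 of all 12795 tested genes in either direction. DESeq2 called 0 members and 2 genes in all. TNC had 1.73, 2.18 and 2.13 CPM with control siRNA against 2.81, 3.96 and 3.36 CPM with IL4 alone (log2 change -0.73, SE 0.27, edgeR adjusted p = 0.898), and COL1A1 had 13.2, 14.98 and 14.4 CPM against 23.2, 15.98 and 15.7 CPM (log2 change -0.35, SE 0.15, edgeR adjusted p = 0.898). A p above the threshold does not show that the groups were alike.

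Set on the untreated libraries, which these comparisons share, the groups stood as follows. With IL4 and Compound A, 19 members were higher and 6 lower than untreated (12.7% and 13.5% of all genes). With IL4 and ALOX15 siRNA, 28 were higher and 4 lower (12.5% and 12.6%), and with IL4 and control siRNA, 29 were higher and 4 lower (9.93% and 9.36%). The members' median log2 change against untreated was 0.26 with Compound A, 0.59 with ALOX15 siRNA, 0.57 with control siRNA and 0.54 with IL4 alone. FBN1 had log2 changes against untreated of 1.82 with Compound A, 2.50 with ALOX15 siRNA, 2.42 with control siRNA and 2.28 with IL4 alone. COL5A1 had 2.15, 2.73, 2.33 and 2.27 in the same order, and both stood above untreated in all 4. COL1A1 with Compound A did not differ from untreated beyond the threshold (0.33, SE 0.18, edgeR adjusted p = 0.200), nor did PAPLN (0.053, SE 0.18, edgeR adjusted p = 0.860), AGRN (0.044, SE 0.11, edgeR adjusted p = 0.810), LAMB1 (0.060, SE 0.045, edgeR adjusted p = 0.363), COL4A2 (0.11, SE 0.071, edgeR adjusted p = 0.282), MMP15 (0.32, SE 0.21, edgeR adjusted p = 0.286) or BMPER (-0.34, SE 0.19, edgeR adjusted p = 0.195).

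**Figure D4:**
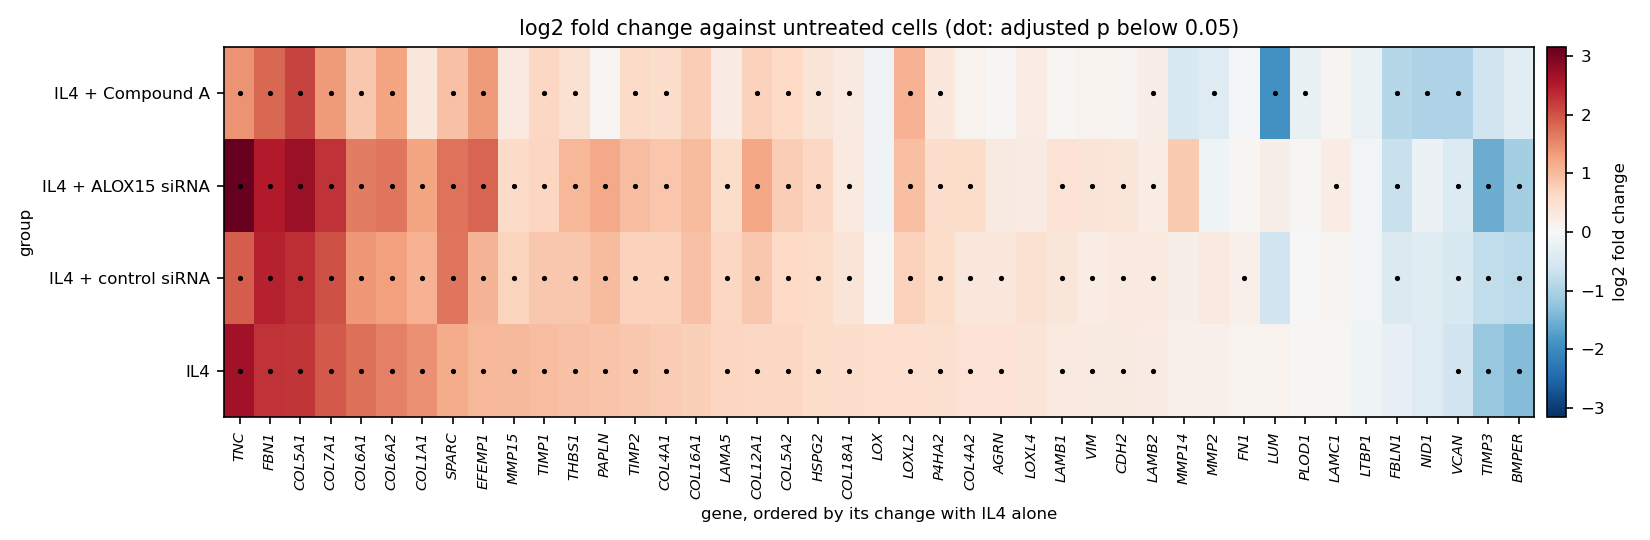
Colour map of the log2 change against untreated cells for the 43 tested members (columns) in the 4 IL4 groups (rows), which share the same 3 untreated libraries; a dot marks an adjusted p below 0.05. The members' median is 0.26 with Compound A, 0.59 with ALOX15 siRNA, 0.57 with control siRNA and 0.54 with IL4 alone, and the Compound A row has the fewest dots on the red side, 19.

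TNC stayed higher than untreated with Compound A (1.42, SE 0.39, edgeR adjusted p = 0.00932), a call lost without untreated replicate 1 (1.16, edgeR adjusted p = 0.0641) or Compound A replicate 2 (1.19, 0.0781), and COL7A1 did so at 1.35 (SE 0.14, edgeR adjusted p = 2.78e-06). The 4 members that lay furthest below untreated with Compound A were LUM (-1.91, SE 0.47, edgeR adjusted p = 0.00445), NID1 (-0.98, SE 0.17, edgeR adjusted p = 0.000174), VCAN (-0.96, SE 0.056, edgeR adjusted p = 6.52e-11) and FBLN1 (-0.89, SE 0.15, edgeR adjusted p = 0.000147). LUM had 0.236, 0.315 and 0.445 CPM with Compound A against 0.997, 1.65 and 1.19 CPM in untreated libraries, without overlap. VCAN had 219, 212 and 214 CPM with Compound A, 309.8, 305 and 315 CPM with ALOX15 siRNA, 295, 307 and 304 CPM with control siRNA and 393, 447 and 433 CPM in untreated libraries, lower than untreated in every IL4 group and lowest with Compound A. With ALOX15 siRNA the largest rises over untreated were TNC (3.16, SE 0.32, edgeR adjusted p = 1.69e-07), COL5A1, FBN1 and COL7A1 (2.29), and the falls were TIMP3 (-1.56, SE 0.26, edgeR adjusted p = 0.000141), BMPER (-1.07, SE 0.21, edgeR adjusted p = 0.000526), FBLN1 (-0.69, SE 0.15, edgeR adjusted p = 0.00171) and VCAN (-0.43, SE 0.055, edgeR adjusted p = 4.42e-06). With control siRNA the largest rises were FBN1, COL5A1, COL7A1 (2.02) and TNC (1.91), and the falls were BMPER (-0.86, SE 0.20, edgeR adjusted p = 0.00412), TIMP3 (-0.79, SE 0.24, edgeR adjusted p = 0.0268), VCAN (-0.49, SE 0.056, edgeR adjusted p = 1.56e-06) and FBLN1 (-0.46, SE 0.15, edgeR adjusted p = 0.0347). In the control siRNA comparison FBLN1 lost its call without untreated replicate 1 (-0.29, 0.225) or 2 (0.0507), control siRNA replicate 1 (0.102) or 3 (0.163) or Compound A replicate 2 (0.0529), and TIMP3 without untreated replicate 2 (0.121) or 3 (0.0634) or control siRNA replicate 2 (0.0544) or 3 (-0.51, 0.172) and by DESeq2 (0.0563).

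The wider matrix and adhesion genes outside the 46 were counted in the same fits, against the shares of all genes given above. Of 13 other collagens tested, 7 rose and 1 fell with IL4, and with Compound A 2 fell. COL14A1 rose by 3.13 (SE 0.69, edgeR adjusted p = 0.00208), COL22A1 by 1.70 (SE 0.52, edgeR adjusted p = 0.0215) and COL17A1, the transmembrane collagen of hemidesmosomes, by 1.90 (SE 0.19, edgeR adjusted p = 1.78e-07), while COL21A1 fell by 1.07 on the log2 scale. COL17A1 fell with Compound A, with a log2 change of -1.11, with 6.25, 6.61 and 5.34 CPM against 17.02, 12.1 and 11.3 CPM with IL4 alone. Of 24 other laminins and glycoproteins tested, 6 rose and 2 fell with IL4, and 1 rose and 3 fell with Compound A. FBN2, the fibrillin next to FBN1 in kind, changed by 2.02 (SE 0.066, edgeR adjusted p = 7.67e-15) with IL4 and -0.66 (SE 0.063, edgeR adjusted p = 2.07e-06) with Compound A, and MATN2, a matrilin, by 0.97 and -0.87.

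Of 18 other collagen processing enzymes tested, 4 rose with IL4, and 2 rose and 6 fell with Compound A, and the fallers were 3 without IL4 replicate 1 or after GC correction. BMP1, the proteinase that trims procollagen, changed by 1.28 (SE 0.078, edgeR adjusted p = 1.42e-10) with IL4 and -0.72 (SE 0.076, edgeR adjusted p = 7.92e-06) with Compound A, and SERPINH1, the collagen chaperone HSP47, by 0.50 (SE 0.076, edgeR adjusted p = 5.06e-05) and -0.40 (SE 0.076, edgeR adjusted p = 0.00193). Of 12 other metalloproteinases and inhibitors tested, 6 rose with IL4 and 2 fell with Compound A, among them MMP28 (log2 change 2.01 with IL4), ADAM19 (1.32) and the epithelial matrilysin MMP7 (0.94 with IL4 and -0.50 with Compound A). Of 8 latent TGF-beta binding and BMP modulating genes tested, 3 rose and 1 fell with IL4 and 2 fell with Compound A, with rises of 1.36 for LTBP2, 1.30 for FSTL1 and 1.18 for FSTL3. Of 8 other proteoglycans tested, 3 rose and 1 fell with IL4, and 1 rose and 3 fell with Compound A, GPC6 changing by 0.72 with IL4 and PRG4 by -0.62 with Compound A. SRGN (serglycin) was both the faller with IL4 (-0.21) and the riser with Compound A (0.26), and after GC correction it passed in neither (-0.057, edgeR adjusted p = 0.512, and 0.099, 0.254), nor without IL4 replicate 1 (0.132 and 0.0557).

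Of 16 integrins tested, the receptors for these proteins, 6 rose and 1 fell with IL4, 1 rose and 1 fell with Compound A, and 2 rose with ALOX15 siRNA. ITGB4 of the hemidesmosome changed by 1.63 (SE 0.071, edgeR adjusted p = 5.81e-13) with IL4, ITGB6, whose integrin activates latent TGF-beta, by 1.79 (SE 0.36, edgeR adjusted p = 0.00108) and ITGA3 by 0.94 (SE 0.064, edgeR adjusted p = 5.81e-10). The 2 integrins higher with ALOX15 siRNA were ITGA3 (0.28) and ITGA11 (0.63), whose calls were lost in 11 and 6 of 25 alternatives (highest adjusted p = 0.248 and 0.142). Of 15 factors used to follow epithelial-mesenchymal change tested, 2 rose and 1 fell with IL4 and 2 fell with Compound A. TAGLN, an actin-binding protein that is also among the fibroblast markers, had 4.08, 4.62 and 3.49 CPM with IL4 against 0.816, 1.10 and 0.747 CPM in untreated libraries (log2 change 2.15, SE 0.28, edgeR adjusted p = 6.97e-06), and its part in the matrix changes was not tested. ZEB2 changed by 0.59 and the epithelial EPCAM by -0.53 with IL4. The other tested epithelial markers did not fall with EPCAM. KRT8, KRT18, KRT19 and ABCA3 passed as higher with IL4 (0.78, 0.84, 0.55 and 0.71). CDH1 and KRT7 did not pass (0.14 and 0.13). Besides TAGLN, the tested fibroblast and mesenchymal markers COL3A1, ACTA2, THY1 and LUM did not pass with IL4 (0.089, 0.15, -0.71 and 0.11). SNAI1 and CDH1 changed by -0.96 and -0.19 with Compound A, and SNAI1 did not pass without IL4 replicate 1 (edgeR adjusted p = 0.135) or after GC correction (0.0601). The calls of CDH1 with Compound A and of EPCAM with IL4 were lost in 11 and 4 of 25 alternatives (highest adjusted p = 0.192 and 0.105), those of COL22A1 and COL21A1 with IL4 in 2 and 1, and that of PRG4 with Compound A in 1. Over those alternatives the counts that moved by over 1.5 times in the wider lists included the other collagens that rose with IL4 (3 to 7), the processing enzymes that rose (0 to 4) and fell (2 to 6) with Compound A, the epithelial-mesenchymal factors that fell with Compound A (0 to 3) and the integrins that rose with ALOX15 siRNA (0 to 3). The shares of all genes under each alternative are not given, so these ranges are not read as results about the lists.

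The 250 bases before the RefSeq start site were available for 36 of the 46 members and searched on both strands for fixed letters, beside 27305 genes. A GC box (GGGCGG), the site type bound by SP1, was found in 31 of 36 members (86.1%) and in 46.2% of all genes. The 27305 genes are all those with a RefSeq promoter, tested in these libraries or not, so they are not matched to the members for expression. Transcripts of 13 of the 43 tested members have at least 60% GC, against 13.9% of all tested genes. The GC of the promoter windows was not compared. What part base composition or expression has in the GC box share was not tested. The CCAAT box stood in 14 members (38.9%, against 37.0% of all genes) and TATAAA in 4 (11.1% against 13.0%). The palindrome of TTC and GAA with 4 free bases between, the spacing that STAT6 prefers, was found in 1 member, LTBP1 (2.78% against 6.55%). TTCNNNGAA was found in 3, COL7A1, LAMB2 and THBS1 (8.33% against 8.09%), and the AP-1 type TGANTCA in 1, CDH2 (2.78% against 8.06%). None of these motifs contains another, though matches may overlap, and a match or its absence in so short a window says nothing of whether a factor binds the gene.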

How the data were processed

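RNA-seq was run on 15 libraries of A549 cells, 3 in each of 5 groups taken from the sample labels. The authors deposited 1 table of RSEM expected counts (estimated reads for each gene), with no scaling between libraries. Per the submitters' processing notes reads were aligned with Bowtie2 2.1.0 and quantified with RSEM 1.2.15 on hg38. Which gene annotation, filters on reads and strand setting they used is not given in the sources used here.

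After rounding to whole numbers, the filterByExpr filter of edgeR kept 12795 genes, which hold at least 99.872% of the counts of every library. Library totals were 6407936 to 11031246 counts (median 7442934). An edgeR 4.0.16 model (TMM scaling, robust quasi-likelihood F test, R 4.3.3) took all 15 libraries with 1 coefficient per group, its common biological coefficient of variation being 0.0731. Benjamini-Hochberg adjustment ran over the 12795 genes, and 0.05 was the threshold. The SE is the absolute log2 change over the square root of F. CPM divide a count by the unscaled library total. Floors take 3 counts and cover counting error only. Gene positions, lengths and GC were read from GENCODE v29 and matched for 95.19% of tested genes, and promoters come from RefSeq (GRCh38.p14). The fitting procedure was tested on simulated data.

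The members and the wider lists were chosen with earlier results of these data known. Full values were given for the 10 largest rises and 6 largest falls that passed with IL4, the 8 falls and 4 rises with Compound A, up to 4 in each direction elsewhere, and VIM, CDH2, FN1, COL1A1, COL1A2, COL4A1 and COL4A2. Other members that did so in some comparison, such as LAMA5, NID1 and MMP2, were given with them. Alternatives were other scalings, other filters, unrounded counts, DESeq2 1.42.0, a fit on the compared groups only, the replicate number as a block, a GC correction, and leaving out each library in turn.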

Additional observations from a re-analysis of the deposited data

How the results depend on the processing

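Counts of members are given against 25 alternatives in each comparison, and no count or member that passed changed its direction under any of them. In IL4 against untreated, 28 higher ranged from 26 to 30, and 3 lower became 5 after GC correction, alone or with the replicate block. In Compound A against IL4, 2 higher and 21 lower became 1 and 8 in a fit on the compared groups only, and leaving out 1 library gave 2 to 3 higher and 14 to 24 lower. In ALOX15 siRNA against control siRNA, 3 higher became 5 with the replicate block, 6 after GC correction, 9 with block and GC correction together, 9 on the compared groups only and 5 by DESeq2, and 1 to 7 on leaving out 1 library. In Compound A against control siRNA, 12 lower became 20 on the compared groups only and 8 to 19 on leaving out 1 library, while 1 higher became 0 to 1. In the difference of the Compound A and ALOX15 siRNA effects, 1 higher became 3 after GC correction, 3 with block and GC correction, 0 by DESeq2 and 0 to 2 on leaving out 1 library. Its 14 lower became 13 to 18 on leaving out 1 library and 12 to 19 in the other settings. In control siRNA against untreated, leaving out 1 library gave 26 to 29 higher and 2 to 4 lower, and the other settings 28 to 30 and 3 to 4. In Compound A against untreated, leaving out 1 library gave 16 to 21 higher and 4 to 8 lower, and the other settings 17 to 25 and 4 to 7. In ALOX15 siRNA against untreated, leaving out 1 library gave 25 to 30 higher and the other settings 27 to 31. The counts in this paragraph stand without the share of all genes under each setting, so they are not read as results about the members. The cause of the moves in these counts was not tested.

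DESeq2 gave no adjusted p for TNC and LUM in Compound A against IL4 or for TNC, LUM and BMPER in the difference, and these are not counted as lost calls. Replicate numbers recur in every group, and the labels do not say whether they pair the libraries. Deviations of same-numbered libraries from their group means correlated at -0.128 to 0.286, with 8 of 30 pairs above 0.1, and in 16 of the 30 the closest library of the other group had the same number. These values do not settle whether the libraries are paired, and the main fit took them as unpaired. With the number as a block, ALOX15 siRNA against control siRNA had 5 members higher instead of 3, and no other count moved by over 1.5 times.

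Depth limits the low members most. TNC had 4 to 41 counts in a library, LUM 2 to 15, LOX 3 to 16 and SPARC 6 to 37, and COL6A3 and EFEMP2 could not be tested. The libraries carry no molecular identifiers in the sources used here, and p-values rest on 3 libraries a group.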
